A study of Mus musculus with 15 samples.

Results

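A stretch of mouse chromosome 12 between 52 and 61 Mb (coordinates of build mm9, as given on the arrays) carried 122 of the 37074 gene names on the array, with 182 probes, once Foxa1 and Egln3 were set aside. The members were chosen by position, and the stretch was chosen because several of its genes had differed between the backgrounds compared here. Its differences are therefore given as a description, without a test. Dtd2 and Gemin2 give the stretch its name, and other members lie on the outer side of each. Probes well above background on at least 7 of the 15 arrays were kept, which left 118 probes of 75 genes. Of these 75 genes, 43 had a RefSeq symbol and 32 went by another transcript name, and 63 were well above background on all 15 arrays.

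The samples were mammary tumours of MMTV-PyMT mice at 20 weeks of age, 7 on the Wsh background and 8 on the B6 background. In MMTV-PyMT mice, the polyoma virus middle T oncogene is driven mainly in mammary epithelium by the mouse mammary tumour virus promoter, and all mice in both groups carried it. Wsh is the sash allele of Kit, an inversion on chromosome 5 that leaves adult mice short of mast cells, while B6 is the C57BL/6 background. The labels do not say whether each tumour came from a separate mouse, so a p-value measures the spread between these samples only. How many times Wsh was crossed to B6 is not given in the sources used here. A value below is the log2 processed signal of a probe minus the 75th percentile of its array, called the relative log2 signal, and a difference is Wsh minus B6 with its standard error from limma.

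Several unrelated cell functions lie side by side in this stretch. Srp54 proteins bind the signal sequence of a growing secreted or membrane protein and bring the ribosome to the endoplasmic reticulum, and Sec23a builds the COPII coat in which such proteins leave it. Dtd2 clears tRNAs that carry the wrong amino acid, and Gemin2 belongs to the SMN complex, which assembles the ribonucleoproteins of the spliceosome. Nfkbia encodes the inhibitor that holds NF-kB in the cytoplasm, Psma6 a subunit of the proteasome core, and Clec14a a surface lectin of endothelium.

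The probe sequences on which the described differences rest are given here because an array value is the binding of labelled RNA to one 60-base probe, and several genes had probes that did not move together. They are written as on the array, with mm9 coordinates, and an mm9 gene annotation was not used here. Capitals mark the bases that 1 probe shares with the end of another.
Dtd2 A_55_P1974233, chr12:53100613-53100672, minus strand: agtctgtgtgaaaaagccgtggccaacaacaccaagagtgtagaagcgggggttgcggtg
Snx6-span transcript A_30_P01029490, chr12:55847350-55847409, minus strand: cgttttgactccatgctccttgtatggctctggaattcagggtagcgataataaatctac
Snx6-span transcript A_30_P01024054, chr12:55852779-55852838, minus strand: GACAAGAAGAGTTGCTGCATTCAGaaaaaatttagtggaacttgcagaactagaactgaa
Snx6 A_66_P100403, chr12:55852815-55852947, minus strand: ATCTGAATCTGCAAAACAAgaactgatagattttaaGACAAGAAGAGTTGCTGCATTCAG
Snx6 A_55_P2020200, chr12:55852929-55852988, minus strand: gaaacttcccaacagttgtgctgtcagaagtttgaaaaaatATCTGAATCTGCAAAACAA
Snx6-span transcript A_30_P01027230, chr12:55857943-55858002, minus strand: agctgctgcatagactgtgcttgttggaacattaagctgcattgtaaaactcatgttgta
Srp54a A_52_P279184, chr12:56190256-56191171, plus strand: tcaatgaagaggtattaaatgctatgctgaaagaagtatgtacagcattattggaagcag
Srp54a A_55_P2467801, chr12:56216293-56216352, plus strand: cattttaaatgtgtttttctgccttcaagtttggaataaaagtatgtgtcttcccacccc
Srp54a A_55_P2723324, chr12:56216295-56216354, plus strand: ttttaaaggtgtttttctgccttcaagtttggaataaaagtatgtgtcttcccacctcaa
Srp54b A_55_P1979818, chr12:56290133-56290192, plus strand: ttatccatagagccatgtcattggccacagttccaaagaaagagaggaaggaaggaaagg
Srp54c A_55_P2091506, chr12:56363146-56363205, plus strand: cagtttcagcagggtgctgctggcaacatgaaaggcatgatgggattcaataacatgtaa
4921506M07Rik (Ttc6) A_52_P474814, chr12:58718507-58718566, plus strand: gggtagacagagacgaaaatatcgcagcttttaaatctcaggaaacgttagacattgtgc
Sec23a A_52_P72839, chr12:60060275-60060334, minus strand: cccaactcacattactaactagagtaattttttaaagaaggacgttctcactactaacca
Gemin2 A_52_P544666, chr12:60126006-60126065, plus strand: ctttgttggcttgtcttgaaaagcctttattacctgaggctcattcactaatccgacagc
Gemin2 A_55_P2482814, chr12:60128856-60128915, plus strand: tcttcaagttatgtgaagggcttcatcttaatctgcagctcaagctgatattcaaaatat
Gemin2 A_51_P315101, chr12:60129163-60129222, plus strand: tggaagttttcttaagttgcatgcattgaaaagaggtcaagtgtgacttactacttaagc

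Among the 75 genes, 6 passed an adjusted p of 0.05 over all 22342 genes (limma with Benjamini-Hochberg adjustment), against 0.38% of all genes. Dtd2 was higher in Wsh, and Srp54a, Srp54c, 4921506M07Rik (RefSeq Ttc6), Sec23a and Gemin2 were lower. Since this contrast chose the stretch, nothing further is read from that count. Of the 75 genes, 49 had a difference below 0 and 26 above it, with a median of -0.08, and 57.8% of all genes were below 0. For 54 of the 75 genes the difference was smaller than 0.3 in either direction. The values of the 7 Wsh and 8 B6 arrays did not overlap for 5 genes, against 0.367% of all genes. At the level of probes, 10 of 118 passed the threshold over all 34346 probes, 8 lower and 2 higher in Wsh, against 0.381% of all probes, and 8 did not overlap between the backgrounds, against 0.408%.

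**Figure D1:**
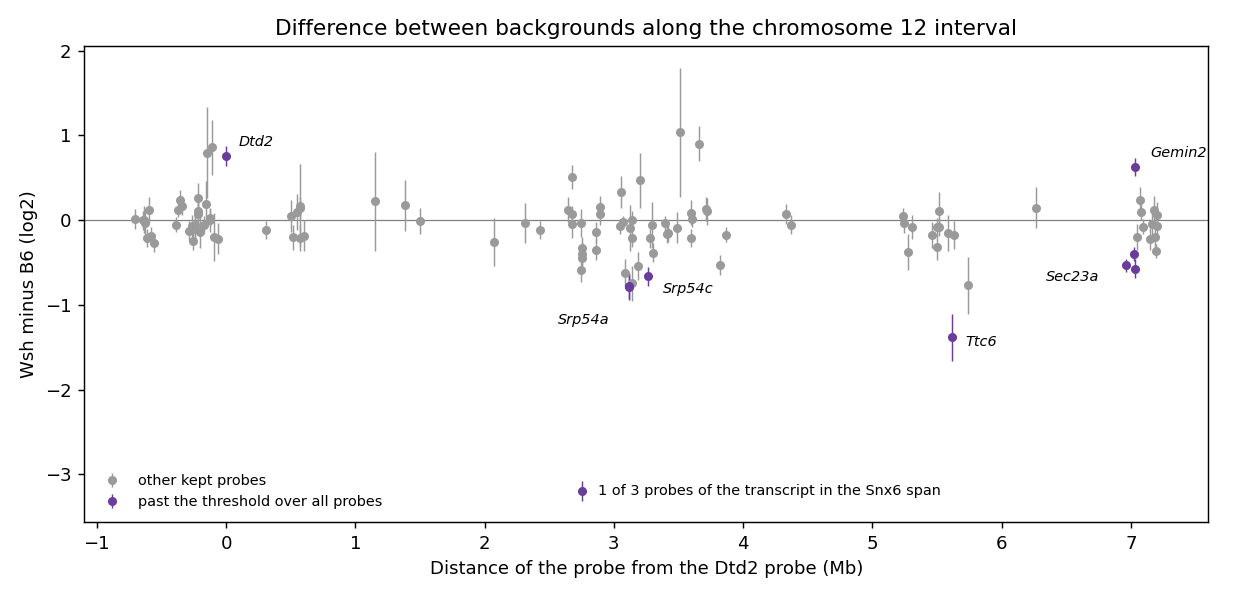
Difference between Wsh and B6 tumours (log2, points) with its standard error (bars) for the 118 kept probes, against the distance of each probe from the Dtd2 probe in Mb. The 10 probes past the threshold over all probes are purple, with 1 probe at -3.19 far below every other, and most of the grey points lie close to 0.

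The genes past the threshold were spread along the stretch with genes that did not pass between them. Between Dtd2 and Srp54a, 3.12 Mb apart, lay 18 measured members that did not pass by their brightest probe. Between Srp54c and Ttc6, 2.36 Mb apart, lay 20. The 18 include the Snx6-span transcript, of which another probe, A_30_P01027230, passed over all probes at -3.19. Egln3 lies in the first of these gaps and Foxa1 in the second, and neither was counted. Sec23a and Gemin2 had no measured gene between them, at a distance of 0.0686 Mb. From 52 to 55 Mb, 10 of 24 genes had a difference below 0 (median 0.02). From 55 to 58 Mb, 25 of 33 were below 0 (median -0.10), and from 58 to 61 Mb, 14 of 18 (median -0.16). The first 3 genes inside the border at 52 Mb were ENSMUST00000062226 at 0.01 (SE 0.12), G2e3 at 0.01 (SE 0.16) and Scfd1 at -0.27 (SE 0.10). The 3 genes before that border were NAP114210-1 at -0.08 (SE 0.09), Prkd1 at -0.18 (SE 0.27) and C130009A20Rik at 0.30 (SE 0.17). The last 3 genes inside the border at 61 Mb were ENSMUST00000080223 at -0.08 (SE 0.09), Mia2 at -0.37 (SE 0.08) and Fbxo33 at -0.07 (SE 0.11). Beyond it came ENSMUST00000167639 at -0.14 (SE 0.10), Gm527 at -0.09 (SE 0.10) and Klhl28 at 0.37 (SE 0.13). No gene passed the threshold among the 12 measured in the 9 Mb before the stretch, the 11 in the 9 Mb after it or the 754 on the rest of the chromosome. Over all genes 0.38% passed, and the stretch was chosen from this contrast, so nothing is read from these counts.

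Of the 5 genes of translation and protein targeting, Dtd2 was higher in Wsh, Srp54a and Srp54c were lower, and Srp54b and Psma6 did not pass. Dtd2 had a relative log2 signal of -0.21, 0.25 and 0.46 (lowest, median and highest) on the Wsh arrays, against -0.84, -0.62 and -0.31 on the B6 arrays. Every Wsh array was above every B6 array, although Wsh replicates 1 and 2, at -0.20 and -0.21, stood well below the other 5. The difference was 0.76 (SE 0.12), a 1.69-fold higher signal. Its call was kept whichever of the 15 arrays was left out, with differences from 0.71 to 0.82. It was lost with median scaling, on each slide alone and with the replicate block. All such refits, for Dtd2 and for the members below, reuse the contrast that chose the stretch. A call kept in them is therefore a description and no further support.

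Srp54a encodes the signal-sequence-binding subunit of the signal recognition particle, and Srp54b and Srp54c are tandem copies beside it. Srp54a probe A_55_P2723324, the brightest of 3, had a relative log2 signal of 0.31, 0.58 and 0.77 on the Wsh arrays, against 0.58, 1.42 and 1.78 on the B6 arrays. Of the B6 arrays, replicate 4 alone lay inside the Wsh range, so the groups overlapped. The difference was -0.78 (SE 0.15). Probe A_55_P2467801 starts 2 bases before it and differs from it in 2 of the 58 shared positions, T10G and C59T, counted from 1 at the 5′ end of A_55_P2467801. It gave -0.79 (SE 0.16), and these probes are close to a repeat measurement of one site. The third probe, A_52_P279184, whose coordinates cover more of the genome than its 60 bases, gave -0.62 (SE 0.16) and did not pass.

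Srp54c had a relative log2 signal of 2.81, 3.01 and 3.13 on the Wsh arrays, against 3.24, 3.70 and 3.89 on the B6 arrays. Every Wsh array was below every B6 array, and the 2 lowest B6 values came from replicates 4 and 7. The difference was -0.66 (SE 0.11), a 1.58-fold lower signal. Srp54b, the copy between them, had -3.60, -3.17 and -2.64 on the Wsh arrays and -3.16, -2.74 and -2.26 on the B6 arrays. The groups overlapped, and its difference of -0.54 (SE 0.17) did not pass. The copies are near-identical genes, so RNA of one may bind probes of another, and the part of each copy in these values was not tested. Of 15 fits that each dropped 1 array, Srp54a passed in 2 (without B6 replicate 4, at -0.88, and without B6 replicate 7). Srp54c passed in 9 of them and did not pass without Wsh replicate 2, 4 or 7 or B6 replicate 5, 6 or 8. Neither gene passed with median scaling, without a filter on dim probes, on each slide alone or with the replicate block. Srp54a was also lost with slide as a block in the fit.

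The same block holds a second duplicated gene, Fam177a. Its relative log2 signal was -1.20, -0.69 and -0.35 on the Wsh arrays, against -1.08, 0.09 and 0.58 on the B6 arrays. B6 replicate 4, the low B6 array of Srp54a, was again the lowest B6 value and lay inside the Wsh range. The difference of -0.74 (SE 0.21) did not pass. The copy 1700047I17Rik2 (RefSeq Fam177a2) had 6.61, 6.68 and 6.97 on the Wsh arrays and 6.24, 6.80 and 6.94 on the B6 arrays, with full overlap, and a difference of 0.00 (SE 0.11). Gm2436, also in the block, gave -0.22 (SE 0.10). Psma6, an alpha subunit of the proteasome core and the last of the 5 genes, gave -0.15 (SE 0.11) and -0.17 (SE 0.11) with its 2 probes, neither past the threshold.

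Of the 4 genes grouped here under membrane traffic, 1 passed, and their median difference was -0.38. Scfd1 and Ap4s1, which also serve vesicle traffic, were listed in other groups and gave -0.27 and -0.07. Sec23a, the COPII subunit that activates the GTPase Sar1, had a relative log2 signal of -1.26, -1.24 and -1.04 on the Wsh arrays, against -0.88, -0.66 and -0.48 on the B6 arrays. Every Wsh array was below every B6 array, and the Wsh values lay within a narrow band (SD 0.0904, against 0.133 in B6). The difference was -0.54 (SE 0.08), a 1.45-fold lower signal, and it passed whichever array was left out, but not on either slide alone or with the replicate block. A second Sec23a probe, A_51_P228722, was too dim to be kept (well above background on 3 of 7 Wsh and 2 of 8 B6 arrays). Its median pointed the other way, at -4.90 in Wsh against -5.33 in B6. Mia2, which helps load large cargo at endoplasmic reticulum exit sites, was measured by 5 probes named Ctage5. Its brightest probe had 2.44, 2.62 and 2.71 on the Wsh arrays and 2.69, 3.004 and 3.14 on the B6 arrays, a difference of -0.37 (SE 0.08) that did not pass. Its other probes ranged up to 0.12. Trappc6b, of a complex that tethers transport vesicles, gave -0.19 (SE 0.15).

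Snx6, a sorting nexin that works with retromer on endosomes, gave -0.39 (SE 0.14) and -0.33 (SE 0.12) with probes that share 19 bases, and neither passed. A transcript named on the array by its span, chr12:55844075-55898175 on the minus strand, runs over the Snx6 probes, and 1 of its 3 probes shares 24 bases with Snx6 probe A_66_P100403 (capitals above). That probe, A_30_P01024054, gave -0.45 (SE 0.13), close to the Snx6 values. Probe A_30_P01029490, the brightest, gave -0.59 (SE 0.14) and did not pass either.

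The remaining probe of this transcript, A_30_P01027230, stood apart. Its relative log2 signal was -2.33, -2.20 and -1.70 on the Wsh arrays, against 0.72, 1.07 and 1.34 on the B6 arrays. No Wsh array came within 2 log2 units of any B6 array, and the probe was well above background on all 15. The difference was -3.19 (SE 0.11), a 9.16-fold lower signal. It passed the threshold over all probes under all 28 settings, with differences between -3.27 and -2.95. These settings reuse the contrast that chose the stretch, so this too is a description. The span of 2.75 between the lowest and highest of the 3 probes was the widest of any gene in the stretch. How much of a probe's value comes from transcript level, from the form of the transcript or from the match of RNA and probe sequence cannot be told apart on these arrays.

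The 3 Gemin2 probes also disagreed, and they pointed both ways. Probe A_55_P2482814, the brightest, had a relative log2 signal of -0.60, -0.21 and 0.12 on the Wsh arrays, against 0.13, 0.34 and 0.56 on the B6 arrays. The groups were separated by a narrow gap, and the difference was -0.57 (SE 0.11). Probe A_52_P544666 had -1.79, -1.63 and -1.47 on the Wsh arrays and -1.34, -1.29 and -1.01 on the B6 arrays, again with every Wsh array below every B6 array. The difference was -0.40 (SE 0.08). Probe A_51_P315101 had -0.57, -0.33 and 0.03 on the Wsh arrays, against -1.18, -0.94 and -0.60 on the B6 arrays. Here every Wsh array was above every B6 array, by 0.63 (SE 0.11). Its coordinates begin 307 bases after those of A_55_P2482814, on the same strand. The array lists it under a different transcript record from the other Gemin2 probes, and the part of this in the disagreement was not tested. The call at the level of genes, which uses the brightest probe, held in 3 of the 15 fits that dropped 1 array (without B6 replicate 1, Wsh replicate 6 or B6 replicate 7). The upward call of A_51_P315101 was kept in all 15. Of the 28 alternative settings, the gene-level call passed in 8. It was lost when the probes of the gene were averaged, with normexp correction, with median scaling and without a filter on dim probes, among others.

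**Figure D2:**
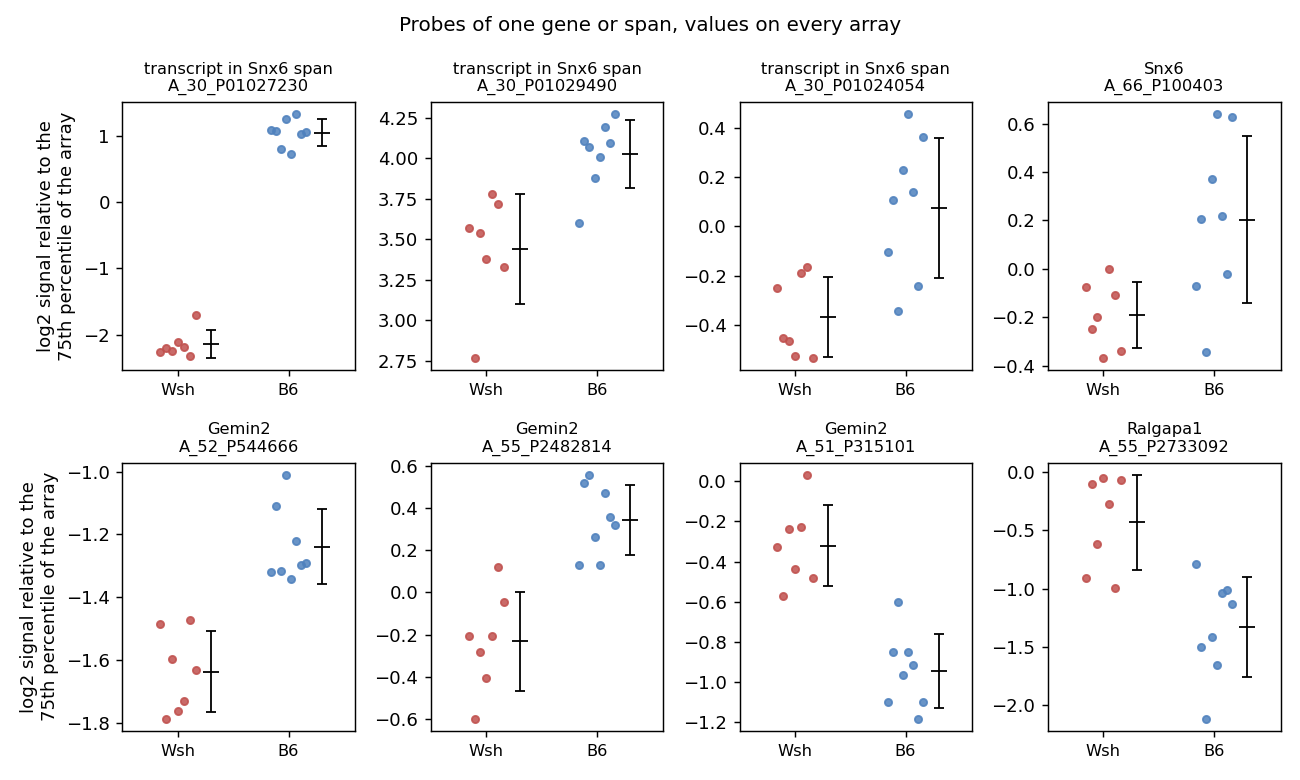
Relative log2 signal on every array (points; mean and SD beside them) for 8 probes, Wsh left and B6 right in each panel. The upper row holds the 3 probes of the transcript in the Snx6 span and an Snx6 probe, where A_30_P01027230 alone splits the backgrounds by 3.19 log2 units; the lower row holds 3 Gemin2 probes, of which A_51_P315101 is higher in Wsh and the others lower, and a Ralgapa1 probe.

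Ttc6, which carries tetratricopeptide repeats, was the dimmest gene past the threshold. Its relative log2 signal was -5.74, -4.45 and -4.06 on the Wsh arrays, against -4.00, -3.32 and -2.49 on the B6 arrays. The groups did not overlap, but the probe was well above background on 4 of 7 Wsh arrays, against 8 of 8 B6 arrays. The difference was -1.38 (SE 0.28). It was -0.75 with normexp background correction and -0.84 in the authors' deposited log2 values, so its size depends on how background is handled, and it passed in 1 of the 15 fits that dropped 1 array (without Wsh replicate 1). Foxa1, the luminal transcription factor set aside by the rule, lies 0.0767 Mb away. It had 1.06, 1.68 and 2.64 on the Wsh arrays and 1.31, 2.75 and 3.17 on the B6 arrays, a difference of -0.77 (SE 0.29) that did not pass. Egln3, also set aside, gave -0.44 (SE 0.26).

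**Figure D3:**
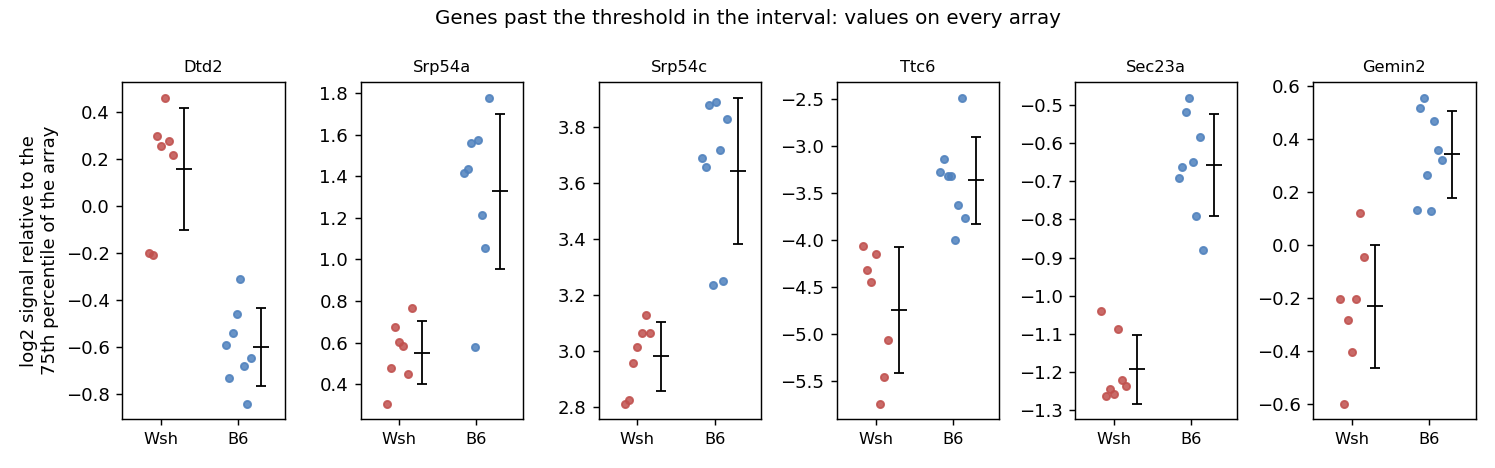
Relative log2 signal of the 6 genes past the threshold on every array, each gene by its brightest kept probe (points; mean and SD beside them), Wsh left and B6 right. The groups do not overlap for Dtd2, Srp54c, Ttc6, Sec23a and Gemin2, and for Srp54a 1 B6 array lies among the Wsh arrays.

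None of the 9 measured genes of signalling passed the threshold, and 6 were below 0 (median -0.07). Nfkbia had a relative log2 signal of 3.55, 3.90 and 4.36 on the Wsh arrays, against 3.22, 4.17 and 4.43 on the B6 arrays, and a difference of -0.09 (SE 0.18). The groups overlapped fully. Ralgapa1, a GTPase activator of Ral proteins, gave 0.01 (SE 0.09) with its brightest probe. Another of its 4 probes, A_55_P2733092, had -0.997, -0.27 and -0.05 on the Wsh arrays, against -2.12, -1.27 and -0.79 on the B6 arrays. These groups overlapped a little, and the difference of 0.90 (SE 0.21) did not pass. The array lists this probe under a different transcript record from the brightest one. Other signalling genes were Ppp2r3c, a regulator of protein phosphatase 2A (-0.21, SE 0.11), Arhgap5, a GTPase activator (-0.20, SE 0.15), Ap4s1, an adaptor subunit (-0.07, SE 0.13), Strn3 (-0.05, SE 0.09), Heatr5a (0.03, SE 0.10) and the kinase anchor Akap6 (0.22, SE 0.59).

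Of the 7 genes of chromatin, transcription and RNA, Gemin2 alone passed, and the other 6 lay between -0.26 and 0.09. They were Npas3, a bHLH-PAS factor (-0.26, SE 0.29), Brms1l, of a histone deacetylase complex (-0.17, SE 0.09), Mbip (0.07, SE 0.12), Eapp, a partner of E2F (0.07, SE 0.10), Baz1a, a subunit of chromatin remodelling complexes (0.08, SE 0.14), and Pnn, a splicing-associated protein (0.09, SE 0.09). Eapp also had a probe, A_65_P04896, at 0.51 (SE 0.14), with -2.26, -1.53 and -1.33 on the Wsh arrays and -2.48, -2.18 and -2.01 on the B6 arrays. Its other probes, which the array lists under a different transcript record, stood at 0.07 and -0.04. The mitochondrial and lipid genes were Nubpl, an assembly factor of complex I (-0.11, SE 0.10), and Sptssa, a small subunit of serine palmitoyltransferase (0.12, SE 0.15).

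The other 48 genes had a median of -0.06 and ran from -1.38 (Ttc6) to 1.04 (probe A_30_P01028811 of an unnamed transcript, well above background on 4 of 7 Wsh arrays, against 3 of 8 B6 arrays). Ttc6 was the 1 gene among them to pass. Scfd1, which helps vesicles fuse between the endoplasmic reticulum and the Golgi, gave -0.27 (SE 0.10), and its 4 probes ran from -0.27 to 0.12. Mipol1 gave -0.31 (SE 0.16). Transcripts without a RefSeq symbol included LOC102642336 at -0.77 (SE 0.34), ENSMUST00000061934 at -0.53 (SE 0.12) and the dim AK037643 at 0.86 (SE 0.33). Prorp, the nuclease subunit of mitochondrial RNase P (1110008L16Rik on the array), gave -0.38 (SE 0.11), with -2.83, -2.79 and -2.30 on the Wsh arrays and -2.61, -2.37 and -1.96 on the B6 arrays. Cfl2, the muscle form of cofilin, gave -0.35 (SE 0.13). Fbxo33, an F-box protein, gave -0.07 (SE 0.11). Clec14a was dim, well above background on 6 of 7 Wsh and 4 of 8 B6 arrays, and gave 0.15 (SE 0.24). Of the 47 members with no kept probe, 25 were not well above background on any array. They and the other 22 are given no difference, among them the developmental transcription factors Nkx2-1, Nkx2-9 and Pax9.

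Of the 26 genes with more than 1 kept probe, the probes of 15 agreed in sign, those of 11 pointed both ways, and those of 18 lay within 0.3 of each other. Probe disagreement was widest in the Snx6-span transcript and then in Gemin2 (span 1.20), Ralgapa1 (0.89), Eapp (0.56) and Ctage5 (0.48).

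The arrays came from 2 slides, 1 with 4 Wsh and 4 B6 arrays and 1 with 3 Wsh and 4 B6 arrays, and this allows a test that did not choose the stretch. With background in the fit, none of the 75 genes differed between slides at an adjusted p of 0.05 (limma), against 0.0269% of all genes. Of the 75, 8 had an unadjusted p under 0.05 (limma), a count not taken over all genes, so nothing is read from it. Among the 75 genes the lowest adjusted p (limma) was 0.162, for LOC102642272, with a slide 2 minus slide 1 difference of 0.70 (SE 0.14). Within the slides, the difference of Dtd2 was 0.62 on slide 1 and 0.94 on slide 2, and that of Sec23a was -0.61 and -0.45. For A_30_P01027230 it was -3.26 and -3.11, for Srp54c -0.71 and -0.58, for Gemin2 probe A_55_P2482814 -0.74 and -0.36, and for A_51_P315101 0.49 and 0.79. Ttc6 gave -0.98 on slide 1 and -1.95 on slide 2. For each of these probes every Wsh value lay on the same side of every B6 value. Its sign on either slide was therefore fixed in advance, and nothing is read from it. The sizes come from the contrast that chose the stretch and are given as a description. The smaller fits made fewer calls.

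**Figure D4:**
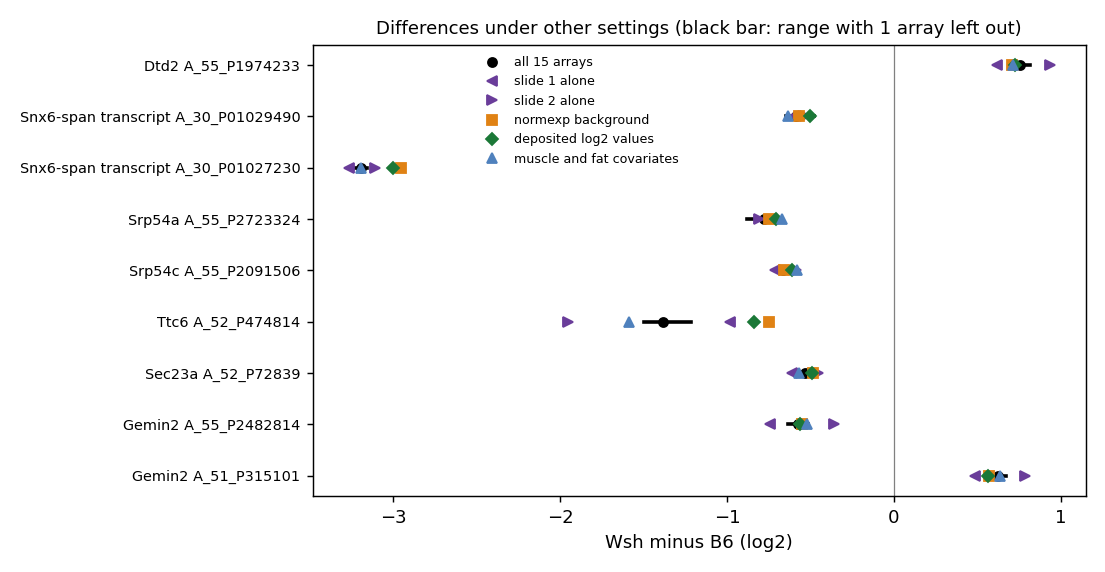
Difference between Wsh and B6 (log2) for 9 probes of the named genes with all 15 arrays (circles), on each slide alone (triangles pointing left and right), with normexp background correction (squares), in the deposited log2 values (diamonds) and with skeletal muscle and adipocyte means as covariates (upward triangles); black bars give the range with 1 array left out. Every symbol stays on its side of 0, and Ttc6 has the widest range, from -1.95 to -0.75. Where the backgrounds do not overlap, the sign on a single slide or with 1 array left out is fixed in advance.

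In whole tumours, fewer cells of a type and less RNA per cell cannot be told apart. Mean relative log2 signals of marker lists were set beside these results. The luminal epithelial list (6 of 6 measured) ran from 3.73 to 4.41 in Wsh and from 3.89 to 4.81 in B6. The skeletal muscle list (10 of 12) ran from -3.85 to 5.001 in Wsh (median 1.41), against -3.76 to 1.72 in B6 (median -3.30). The adipocyte list (10 of 10) ran from 1.89 to 4.61 in Wsh, against -1.17 to 4.91 in B6, and the mast cell list (5 of 5) from -4.37 to -3.70, against -1.75 to 1.76. The B and plasma cell list (8 of 8) ran from -5.07 to 1.33 in Wsh (median -0.82), against -4.77 to -0.07 in B6 (median -2.33), and the T cell list (5 of 6) from -1.44 to 1.20 (median -0.01), against -1.94 to 0.41 (median -0.96). The macrophage list (6 of 6) had medians of 2.72 and 2.58 and the endothelial list (10 of 10) of -0.29 and -0.11, in Wsh and B6 in that order. With the muscle and adipocyte means as covariates, the differences were 0.71 for Dtd2, -0.67 for Srp54a, -0.58 for Srp54c, -1.59 for Ttc6, -0.57 for Sec23a, and -0.52 for Gemin2, and the Gemin2 call was lost. The part of the mast cell, B and plasma cell and T cell lists in the differences given here, those of the NF-kB induced genes included, was not tested.

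Genes elsewhere in the genome that work with a member were read from the same fit, and none of the 52 measured (of 53 on 5 lists) passed the threshold. By limma, 10 of them had an unadjusted p under 0.05, a count not taken over all genes, so nothing is read from it. All 9 partners of Sec23a in the COPII coat had a difference below 0 (median -0.12, against -0.04 over all genes), with Sec13 at -0.27 (SE 0.08, adjusted p = 0.228) Sec24a at -0.32 (SE 0.11, adjusted p = 0.264) and Sar1b at -0.24 (SE 0.11, adjusted p = 0.441). With quantile normalization (median -0.05) and in the deposited values (median -0.06) 5 of the 9 were below 0. Without Wsh replicate 2 it was 6 (median -0.08). How many COPII genes were below 0 therefore depended on the processing and on the arrays, while the median stayed below 0 in these settings. Of 7 partners of Srp54a in the signal recognition particle and its receptor, 6 were below 0, among them Srp72 at -0.30 (SE 0.10, adjusted p = 0.246), Srprb at -0.20 (SE 0.10, adjusted p = 0.502) and Srp9 at -0.10 (SE 0.09, adjusted p = 0.736). In the deposited values 4 of the 7 were below 0 (median 0.00), and with quantile normalization 5 (median -0.01). All 13 other proteasome core genes were below 0 (median -0.16), 11 of 13 with quantile normalization and 8 of 13 on slide 2 alone, with Psmb1 at -0.21 (SE 0.09, adjusted p = 0.400), Psmb4 at -0.19 (SE 0.10, adjusted p = 0.516) and Psma2 at -0.18 (SE 0.09, adjusted p = 0.529). Of 13 genes that NF-kB induces, 12 were above 0 (median 0.32; 0.10 with array weights, where 4 were below 0), including Il1b at 1.25 (SE 0.42, adjusted p = 0.275), Ccl3 at 0.79 (SE 0.26, adjusted p = 0.259) and Nfkbiz at 0.42 (SE 0.17, adjusted p = 0.373). For the endothelial genes, partners of Clec14a by cell type, 7 of 10 were above 0 (median 0.04), with Kdr at 0.34 (SE 0.16, adjusted p = 0.476), Egfl7 at 0.24 (SE 0.20, adjusted p = 0.717) and Emcn at -0.10 (SE 0.14, adjusted p = 0.844). The direction of this list was not stable: 7 of 10 were below 0 with array weights (median -0.08), with the replicate block (-0.07) and without B6 replicate 8 (-0.07), 8 without Wsh replicate 1 (-0.09), and 6 with median scaling (-0.03), with the covariates (-0.05) and without B6 replicate 3 (-0.01).

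Within 1 background, a relation between a member and its partners does not use the contrast that chose the stretch. Of 10 relations (5 members in 2 backgrounds), none passed after Benjamini-Hochberg adjustment. The closest was Psma6 with the mean of the proteasome core over the 7 Wsh arrays, at Pearson r = 0.90 (exact permutation p = 0.00556, adjusted p = 0.0556) and a Spearman correlation of 0.82 (exact permutation p = 0.0341, adjusted p = 0.171). Without the 2 arrays farthest from the median (Wsh replicates 2 and 6), r was 0.45. It was 0.81 without the same arrays in the deposited values, and 0.93 with normexp correction without the 2 arrays farthest there (Wsh replicates 1 and 2), so how far the relation rests on those arrays depends on the processing. Over the 8 B6 arrays Pearson r was 0.74 (exact permutation p = 0.0322, adjusted p = 0.161) and the Spearman correlation was 0.64 (exact permutation p = 0.0962, adjusted p = 0.240). Without the 2 farthest B6 arrays, r was 0.08. Within slides, after centring each background, it was 0.97 on slide 1 and 0.26 on slide 2. Srp54a with the signal recognition particle gave r = 0.72 in Wsh and 0.66 in B6 (exact permutation, adjusted p = 0.176 for both). Nfkbia with the NF-kB induced genes gave 0.66 and 0.07, Clec14a with endothelium 0.56 and 0.43, and Sec23a with the COPII coat 0.14 and -0.32, in Wsh and B6 in that order. The adjusted p-values of these 6 (exact permutation) lay between 0.212 and 0.850. The Spearman correlation in Wsh and B6 was 0.61 and 0.81 for Srp54a, 0.71 and 0.00 for Nfkbia, 0.11 and 0.33 for Clec14a, and 0.46 and -0.05 for Sec23a (exact permutation, adjusted p from 0.171 to 1). Without the 2 farthest arrays of each, r in Wsh and B6 was -0.03 and 0.65 for Srp54a, 0.46 and 0.37 for Nfkbia, -0.71 and 0.70 for Clec14a, and -0.15 and 0.53 for Sec23a. Leaving those arrays out turned the sign of Srp54a, Clec14a and Sec23a in Wsh and of Sec23a in B6. On slide 1 and slide 2, after centring, r was 0.61 and 0.77 for Srp54a, 0.58 and 0.10 for Nfkbia, 0.85 and 0.08 for Clec14a, and 0.46 and -0.44 for Sec23a.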

How the data were processed

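Per the labels' protocols, tumour RNA was copied into Cy3-labelled cRNA and read on 1-colour Agilent arrays. The deposited intensity is the processed signal of Agilent Feature Extraction 10.7.3.1, per the file headers, background-subtracted but not normalized between arrays. The authors also deposited log2 values of the same arrays, with normalization and centring not given in the sources used here. Each of their columns had the rank order of the signal minus background of its own array (rank correlation 1), with medians from 8.605 to 8.608. The submitters' processing notes name limma.

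Control spots and spots flagged as outliers were dropped, repeat spots of a probe were averaged on the log2 scale, and the 75th percentile over non-control probes of each array (from 2322 to 4470 intensity units) was subtracted. Between 55.7% and 73.4% of probes per array were well above background, and precision is limited by how many arrays there are. For each gene the kept probe with the highest mean stood for it. The test was limma 3.58.1 (lmFit, then eBayes, in R 4.3.3), two-sided, with Benjamini-Hochberg adjustment over all genes or all probes. On simulated data with 200 changed genes among 22342, 95% of genes changed by a log2 of 2 and 70% of those changed by 1 were recovered when tested. Sizes under 1, which include most differences given here, were not simulated, so recovery at those sizes is not known. Exact permutation tests went through all pairings, with ranks for the Spearman correlation from scipy 1.17.1, and figures used matplotlib 3.10.9.

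Probes were named through a RefSeq table of assembly GRCm38.p6, used for names only. 1 probe whose coordinates cross the end of the interval and 1 probe of a member gene without coordinates there were not counted, and the values of 1 measured member are not reported here. The members, gene lists, tests and alternatives were chosen with earlier results of these data known. Named genes are the members past the threshold, or with a probe that does not overlap between the backgrounds, then the other members by role, the 3 genes on each side of each border, Foxa1 and Egln3, up to 3 genes of each partner list by moderated t, and Clec14a, Nfkbia, Psma6, Srp54a and Sec23a. Transcripts without a known role are mostly given as counts. Deviations of arrays with the same replicate number correlated between -0.242 and 0.211, so the values showed no pairing by number, which does not exclude one in the design. Alternatives changed the background correction, scaling, filter, probe rule, slide, array weights, covariates, replicate block, source of values and the arrays included.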

Additional observations from a re-analysis of the deposited data

Results flagged for a closer look

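A probe was set apart where 1 array of a background stood far from the others of that background, by Dixon's criterion at the 95% level. Over the brightest kept probes of the members and the other probes of the named genes, 160 sets of arrays were examined and 16 held such an array, 11 in Wsh and 5 in B6. Chance alone gives about 1 in 20 sets.

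Wsh replicate 2 was the array in 5 of the 16. It was lowest for Ap4s1 at 2.10 (the others from 2.57 to 2.91), for Psma6 at 4.30 (the others from 4.74 to 4.997) and for NAP095011-001 at 5.42 (the others from 5.95 to 6.17). It was highest for Prorp (1110008L16Rik) at -2.30, with the others from -2.83 to -2.74, and for probe A_30_P01026505 at 0.80. Wsh replicate 7 was highest for A_30_P01027230 of the Snx6-span transcript, at -1.70 with the others from -2.33 to -2.11, which is still below every B6 array. It was also highest for probe A_30_P01027839 at -1.79 and lowest for AK037643 at -5.73. Of the remaining Wsh arrays, replicate 6 was highest for probe A_30_P01033077 at -2.24, replicate 5 for Fam177a2 (1700047I17Rik2) at 6.97 and replicate 4 for Gm9802 at -2.84.

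Among the B6 arrays, replicate 1 was lowest for Ap4s1 at 2.26 and for ENSMUST00000117834 at 1.72. Replicate 3 was highest for Prps1l3 at 2.55. Replicate 6 was highest for AK045836 at -1.92, and replicate 4 for probe A_30_P01028811 at -2.92.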

How the results depend on the processing

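Of the 2670 differences of single genes or probes recomputed under an alternative, 2652 moved by less than 1 SD and 18 moved further. Of the differences past the threshold, 0 changed sign. Where the backgrounds do not overlap, leaving arrays out cannot change the sign. Counts moved more. The 6 genes past the threshold became 2 with median scaling, 2 without a filter on dim probes, 0 on slide 1 alone, 0 on slide 2 alone and 0 with the replicate block, and from 2 to 5 with 1 array left out. There were 4 with normexp correction, 5 with slide as a block and 8 with array weights. With the covariates there were 6, where Gemin2 was lost and another member passed. The 10 probes became 6 with median scaling, 3 without a filter, 1 on slide 1 alone, 1 on slide 2 alone and 1 with the replicate block (A_30_P01027230 in each of these single calls), and from 4 to 8 with 1 array left out. They became 7 with normexp correction, 7 with slide as a block, 8 with the covariates and 15 with array weights. The values showed no pairing by replicate number, though one in the design is not excluded, and the block and single slides use fewer arrays or degrees of freedom. Of all genes, 85 passed, against 48 with median scaling, 25 without a filter, 2 on slide 1 alone, 1 on slide 2 alone, 15 with the replicate block, 187 with array weights, 137 with the covariates, and from 26 to 101 with 1 array left out. For median scaling, filter, weights and covariates the cause was not tested. The slide count over all genes was 6, and 11 with quantile normalization, while no member passed under either. The count of partner genes was 0 throughout, from 0 to 0 with 1 array left out. The relation of Psma6 to the proteasome core in Wsh passed with normexp correction (r = 0.96, exact permutation, adjusted p = 0.0179) and in the deposited values (r = 0.96, exact permutation, adjusted p = 0.0139). The sign turned for the relation of Nfkbia in B6 (-0.075 in the deposited values) and for that of Sec23a in Wsh (-0.32 with normexp, -0.074 in the deposited values), and the cause was not tested. Dim probes limit the differences of Ttc6 and Clec14a.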
